A study of Mus musculus with 50 samples.

Results

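Among the blood-forming cells recovered from mice that had each received 1 haematopoietic stem cell (HSC), 358 of 4185 kept cells expressed Cd34 and Flt3 while also meeting an HSC gate set on Procr. They made up 19.2% of the 1862 gate cells (exact Clopper-Pearson 95% interval 17.5 to 21.1) and 8.55% of kept cells (7.72 to 9.44). Both intervals treat each cell as an independent draw and leave out the spread between libraries, which is given below. The gate required at least 50 CPM of Procr, the count scaled to a total of 1e6 per cell, a count of Mecom or Hlf, and less than 30 CPM of Mki67, Top2a and Birc5 together. The Cd34+ Flt3+ cells, called members below, were the gate cells with at least 50 CPM of Cd34, at least 20 CPM of Flt3 and no count of Vwf. The other 1504 gate cells are called the rest. The members were selected on the measured levels of Procr, Mecom, Hlf, Cd34, Flt3, Vwf and the 3 cycling genes, so the values of these genes are given only as a description.

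The donor HSCs carried a β-actin-GFP transgene in the B6-Ly5.2 strain. Competitor whole marrow of unmarked B6-Ly5.2 mice was injected with each of them, and the recipients, also B6-Ly5.2, had been irradiated with 9 Gy. The 50 samples were taken after 1 month (n = 10), 4 months (n = 26) or 12 months (n = 14), and 15 of them joined spleen to marrow. Cells were enriched for the surface protein c-Kit and then sorted one by one on surface markers, CD201 (the product of Procr), CD150 and CD48 among those stained, or on GFP. The cell names hold a library and a position but no sample, so month, tissue, sort gate and donor or competitor origin of a cell were not assigned here. All cells therefore count as 1 pooled sample, no test between months was possible, and no p-value was made from cells. Error is shown as the spread over the 32 libraries that held at least 5 members and at least 5 cells of the rest.

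In the mouse, long-term HSCs carry little CD34 or FLT3 at the surface. CD34, a sialomucin of the cell surface, appears as they pass to short-term HSCs and multipotent progenitors, and the cytokine receptor FLT3 marks progenitors with lymphoid and myeloid output. Procr encodes the endothelial protein C receptor, an HSC surface marker, and Vwf encodes von Willebrand factor, which marks a platelet-primed group of HSCs. A cell with transcripts of all of Procr, Cd34 and Flt3 thus holds markers from both sides of that passage. In GRCm38, Cd34 lies at chr1:194938819-194961279, Flt3 at chr5:147330741-147400489 and Procr at chr2:155751117-155755471.

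Members had a median of 286.8 CPM of Cd34, 77.7 CPM of Flt3 and 271 CPM of Procr, with a lowest and highest Flt3 of 20.1 and 1636 CPM. The rest had medians of 81.8, 0 and 325 CPM for the same genes. Both groups were sequenced to a like depth, with median totals of 134482 counts in members and 131911 in the rest, and with 4314 and 4133.5 detected genes. Members just inside the limits had 20.1 CPM of Flt3 and 50.1 CPM of Cd34, and the nearest cells outside had 19.8 and 48.7 CPM. Among members, 16 rested on 1 count of Flt3 and 181 had at least 10 counts. In the plot of Cd34 against Flt3 the members form no cloud apart from the other cells with Cd34.

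**Figure D1:**
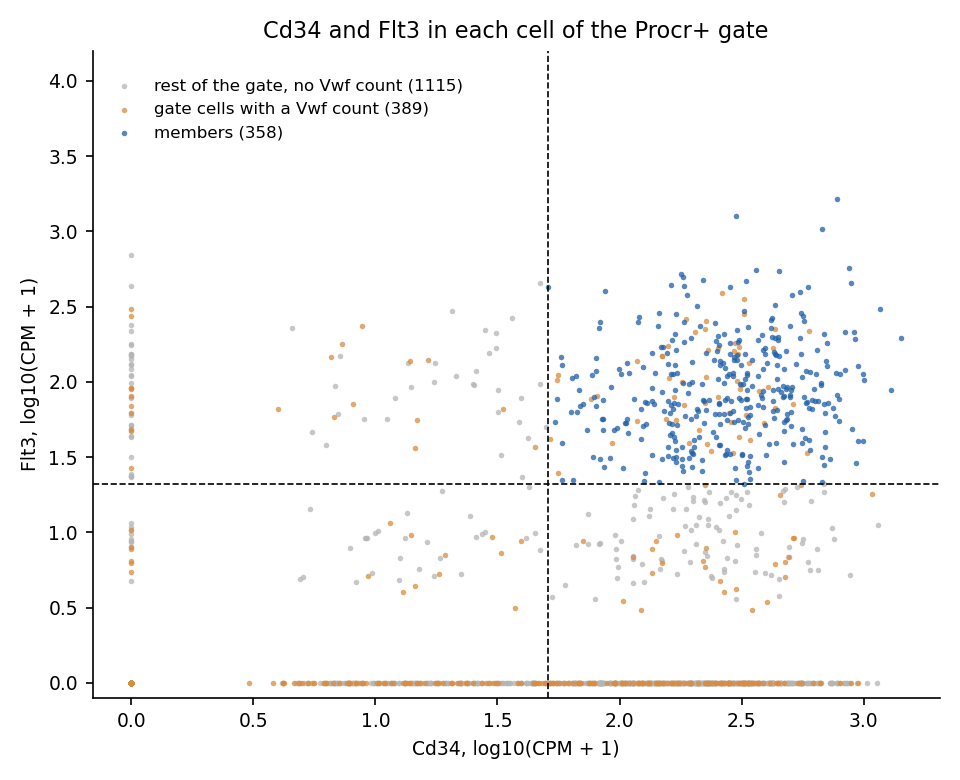
Each point is 1 of the 1862 cells of the Procr+ gate, with Cd34 on the x axis and Flt3 on the y axis as log10(CPM + 1). Dashed lines mark the limits of 50 and 20 CPM, and the 358 members fill the upper right field together with 57 cells that hold a Vwf count.

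As a description of the genes that chose the cells, Flt3 was over its limit in 34.6% of the 1199 gate cells with Cd34 over its limit and in 13.1% of the 663 others. After every cell had been thinned to 50000 counts, the shares were 37.5% of 1026 and 16.3% of 521 cells. A Vwf count was present in 13.7% of cells with both genes, in 18.5% with Cd34 alone, in 25.3% with Flt3 alone and in 28.6% with neither. Thinned, these shares were 9.69, 11.7, 19.7 and 24.0%.

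Counts of Flt3 also appeared in cells with a gene of another lineage and no Procr. Without thinning, 15 of 94 cells with the erythroid gene Klf1 and no Procr had at least 20 CPM of Flt3, as did 8 of 72 such cells with the T-cell gene Cd3e and 13 of 94 with the neutrophil gene S100a8, at median depths of 57479, 31014 and 55377 counts. Thinned to 50000 counts, those shares were 15.7% of 51, 18.5% of 27 and 24.0% of 50 cells, against 30.4% of 1547 gate cells. At a limit of 50 CPM the thinned shares were 1.96%, 3.70% and 2.00%, 1 cell in each, against 20.0% of the gate. Without thinning they were 10.6%, 5.56% and 8.51%, or 10, 4 and 8 cells, against 20.6% of the gate. At 100 CPM without thinning they were 7.45%, 5.56% and 7.45%, against 11.0% of the gate. Thinned, the shares at 100 CPM were 1.96%, 3.70% and 2.00%, 1 cell in each, against 12.8% of the gate. Flt3 at the levels of the rule is thus also found in cells outside the gate, at 20 CPM and, without thinning, at 50 and 100 CPM. Of the 358 members, 270 stood at 50 CPM or more without thinning. A Cd34 count was present in 45 of the Klf1, 26 of the Cd3e and 48 of the S100a8 cells, and 20, 9 and 17 had at least 50 CPM. Without thinning, 4, 1 and 3 of them met the members' limits on Cd34, Flt3 and Vwf. Thinned, 1.96%, 0% and 6% were over the limits of both Cd34 and Flt3, against 24.6% of the gate. Whether these cells express Flt3 was not tested.

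Members were found in 59 libraries, with 1 to 19 in each. Across the 57 libraries with at least 10 gate cells they held between 0 and 52.6% of the gate, with a median of 18.2% and none in 2 libraries. Library 111 had the highest share.

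**Figure D2:**
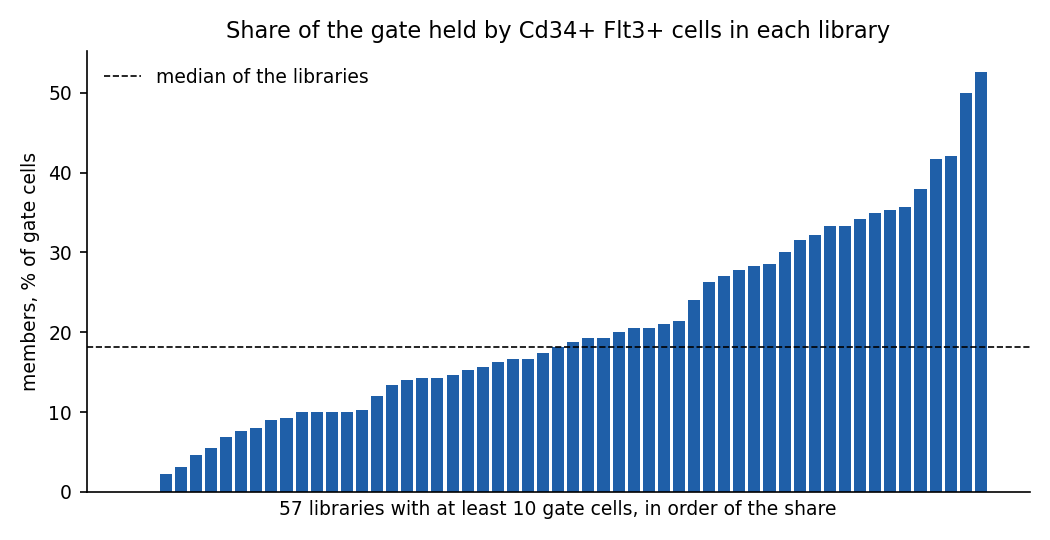
Bars give the members as a percentage of gate cells in each of 57 libraries with at least 10 gate cells, in order of the share. The dashed line is the median of 18.2%, and the highest bar is at 52.6%.

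Few genes outside the rule set members apart from the rest. Of 6555 genes at 20 CPM or more in either group, 11 stood at least 2-fold higher in members (0.168%) and 37 at least 2-fold lower (0.564%), on a log2 scale of summed counts with a pseudocount of 1 CPM. The median over all 6555 was 0.02, and the 5th and 95th percentiles were -0.36 and 0.35. With the rest weighted to the members' libraries, the same genes gave 9 higher (0.137%) and 29 lower (0.442%). Cd34 and Flt3 are among the 11, and Vwf is among the 37.

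The stem cell side lay lower in members. Of 24 measured HSC identity genes outside the rule, 23 stood lower in members, 2 of them at least 2-fold, and the list's median log2 ratio was -0.34 against 0.02 for all genes. Library by library the list's median was below 0 in 30 of 32. Members are fewer than the rest in most of these libraries, with medians of 8 and 27 cells, so a sparse gene is at 0 more often among them. Library 111, with 10 members among 19 gate cells, is an exception. The median over all measured genes was likewise below 0 in 29 of the 32 libraries, and the HSC list lay under that value in 27. These 29 libraries are the background for the counts of list medians below. For a single gene the only background here is the median gene, lower in 17 libraries and higher in 15. It covers genes of all measured levels. A sparse gene can lean to the lower side through the smaller number of members, and no background was made for sparse genes.

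Slamf1, at chr1:171767127-171801184, encodes CD150, the surface protein used to sort long-term HSCs. It stood at 0, 10.1 and 109 CPM in members (lowest, median and highest library) and at 0, 39.1 and 98.9 CPM in the rest. The ranges overlap, but members were lower in 24 libraries and higher in 8. Summed over all cells the levels were 18.8 and 44.3 CPM (exact Poisson 95% intervals 17.7 to 20.0 and 43.4 to 45.2), a log2 ratio of -1.19. A level of 20 CPM or more was found in 15.4% of members and 25.5% of the rest.

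Sult1a1, a sulfotransferase gene at chr7:126672865-126676432, stood at 8.29, 162 and 829 CPM in the members' libraries and at 6.35, 294 and 927 CPM in those of the rest. Both groups spanned about the same wide range between libraries, and members were lower in 22 of 32. The log2 ratio of the summed levels was -1.14, from 173 and 383 CPM. Mllt3, which encodes a chromatin reader that maintains HSCs, stood at 39.6, 124 and 534 CPM in members and at 41.2, 246 and 530 CPM in the rest. It was lower in members in 26 libraries, with a log2 ratio of -0.92.

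Further HSC identity genes had smaller ratios. Pdzk1ip1 was at 378 CPM against 546 CPM (-0.53, lower in 26 libraries). Hoxb5, a homeobox gene of long-term HSCs, was at 18.9 against 31.3 CPM (-0.70), and Cish, a feedback inhibitor of cytokine signals, at 20.8 against 35.0 CPM (-0.72, lower in 28 libraries).

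Several genes that define the wider stem and progenitor compartment differed little. Kit was at 155 CPM in members and 159 CPM in the rest, Ly6a (Sca-1) at 789 and 840 CPM, and Esam, an adhesion gene of HSCs, at 190 and 206 CPM. Hlf, a gene of the gate, was at 230 and 228 CPM. Across the 7 transcription factors of the haematopoietic heptad the median was 0.06 (log2). In the plot of library ratios Kit and Ly6a centre on 0.

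**Figure D3:**
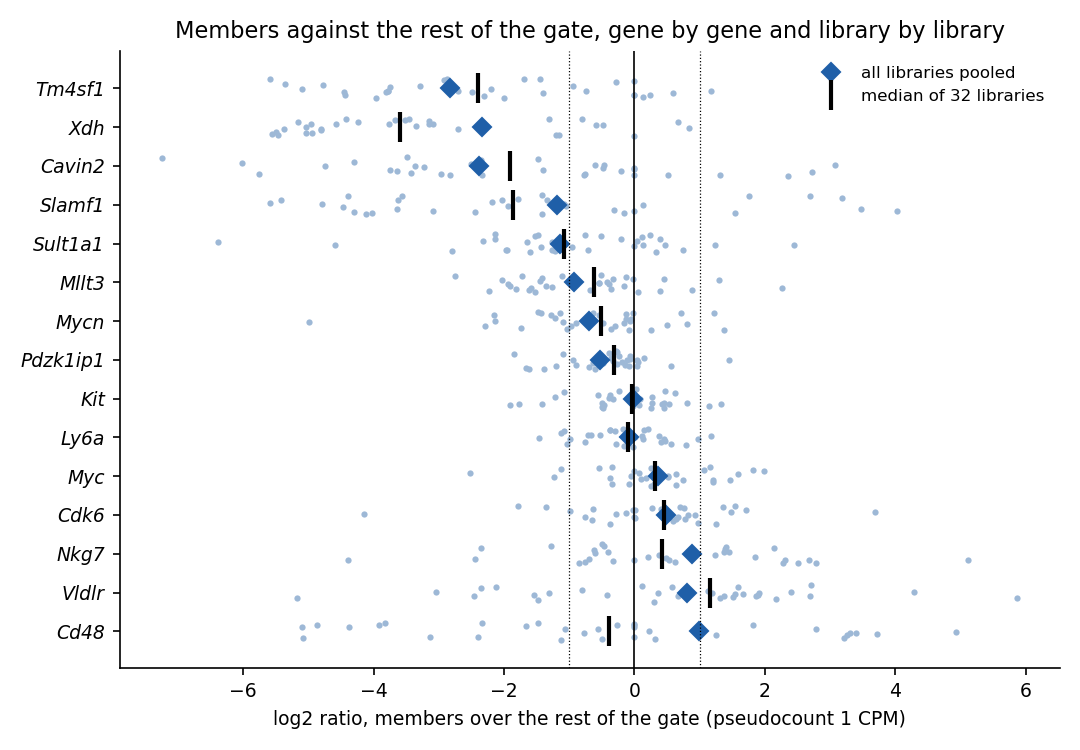
Each pale point is the log2 ratio of members over the rest of the gate in 1 of 32 libraries, the diamond is the ratio of counts summed over all libraries, and the black bar is the median of the libraries. Dotted lines mark 2-fold; the library medians of Xdh and Tm4sf1 lie furthest to the left, and the points for Vldlr and Cd48 spread to both sides of 0.

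Genes known to be raised in HSCs of old mice were lower as a list. Of 20 measured outside the rule, 19 were lower in members, 6 of them at least 2-fold, with a median of -0.58. This median was below 0 in 30 of 32 libraries and under that of all genes in 27. The rule removes Vwf, a gene of the same list, from members only. Against the 1115 gate cells of the rest without a Vwf count the median was -0.37, and with the rest weighted to the members' libraries it was -0.29.

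Tm4sf1, a tetraspan membrane protein gene at chr3:57285611-57301988, had the lowest ratio of the measured genes in this list. It was at 0 in 14 of the members' libraries, with a median of 0.45 and a highest value of 18.8 CPM, against 0, 12.6 and 62.2 CPM in the rest. Members were lower in 25 libraries and higher in 4, and the log2 ratio was -2.83. Jam2, a junctional adhesion gene, was at 6.31 against 21.0 CPM (-1.59). Cd38, an NAD-consuming surface enzyme, was at 7.55 against 22.0 CPM (-1.43). Cavin2, a caveolar protein gene also expressed in platelets, was at 5.05 against 30.4 CPM (-2.38), but its ratio ranged from -3.36 to -2.18 as each library was left out.

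Xdh, which encodes xanthine dehydrogenase, an enzyme of purine breakdown, is in none of the fixed lists. At chr17:73883895-73950196, it was at 0 in 20 of the members' 32 libraries and had a highest value of 29.8 CPM there. In the rest it stood at 0, 23.8 and 46.1 CPM, with 1 library at 0. Members were lower in 29 libraries, and the summed levels were 4.11 CPM (3.59 to 4.69) and 24.8 CPM (24.1 to 25.4), a log2 ratio of -2.33. A count was present in 6.70% of members and 18.4% of the rest.

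Other genes at least 2-fold lower with the same sign in at least 24 libraries included Glipr1l1 (-1.59), the guanylate-binding protein gene Gbp4 (-1.58), Tinagl1 (-1.34), the TNF receptor adaptor gene Traf1 (-1.33) and Slfn2 (-1.29), a Schlafen gene. Slfn2 was at 56.6 CPM in members and 140 CPM in the rest. Over all measured genes, 122 were lower in at least 24 libraries (1.86%) and 11 were higher (0.168%). What part the smaller number of members per library has in this difference was not tested.

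The globin genes Hba-a2, Hbb-bs and Hba-a1 were also lower, with log2 ratios of -1.82, -1.54 and -1.50. The erythroid priming list, which holds these genes, had all 6 measured genes lower and a median of -1.18. That median was below 0 in 28 libraries and under that of all genes in 26. Reads may be split between the near-identical copies Hba-a1 and Hba-a2. The summed level of the erythrocyte markers was 666 CPM in members and 1738 CPM in the rest. The median cell had 186 and 175 CPM, and the highest cell 20533 and 256190 CPM, so typical cells of both groups stood close and the cells with the most globin were in the rest. Neutrophil markers stood at 208 and 1072 CPM in sum, with medians per cell of 5.06 and 6.21 CPM. Without the 5 libraries whose gate cells held over 2000 CPM of neutrophil markers, the neutrophil list's median moved from -2.89 to -0.25, and Hba-a2 and Hbb-bs stood at -1.26 and -1.10. In the same comparison Slamf1, Sult1a1, Mllt3 and Xdh were at -1.14, -1.17, -0.93 and -2.30. What part these markers have in the globin values was not tested.

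On the progenitor side the differences were small and less even between libraries. Of 15 measured multipotent progenitor and lymphoid priming genes other than Flt3, 11 were higher in members and 4 lower, none by 2-fold, with a median of 0.20. Library by library that median was above 0 in 14 and below 0 in 18, and under that of all genes in 15. Cd48, a surface gene of multipotent progenitors at chr1:171682009-171705258, on the same chromosome as Slamf1, was at 21.5 CPM in members and 10.4 CPM in the rest (0.99). It was higher in 11 libraries and lower in 18, against the pooled direction, and the pooled ratio ranged from 0.64 to 1.14 as each library was left out.

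Cd37, a tetraspanin gene of lymphocytes, was at 181 and 129 CPM (0.48, higher in 20 libraries). Il12a was at 56.5 and 42.2 CPM (0.41, higher in 21), and Cd27 at 432 and 375 CPM (0.20). Genes of committed lymphoid progenitors were near absent: a level of 20 CPM or more was found in 1.40% of members for Il7r, the interleukin-7 receptor, in 0.56% for the recombinase gene Rag1 and in 4.47% for Dntt, the terminal transferase of lymphocyte receptor rearrangement. The rest had 1.40%, 0.13% and 2.06%.

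Vldlr, the very-low-density lipoprotein receptor gene at chr19:27216484-27254231, was named as a marker of these cells but is no part of the rule. It stood at 0, 81.4 and 246 CPM in the members' libraries and at 3.18, 41.0 and 168 CPM in the rest. Members were higher in 22 libraries and lower in 10, and the ranges overlap. The summed levels were 83.5 CPM (81.0 to 85.9) and 47.2 CPM (46.3 to 48.1), a log2 ratio of 0.81. A count was present in 54.2% of members and 37.7% of the rest, so Vldlr was not a mark of every member. Cells without Procr had it too: a count was present in 18.1% of the 94 Klf1, 15.3% of the 72 Cd3e and 23.4% of the 94 S100a8 cells. Their median depths were 57479, 31014 and 55377. Cells over the same Cd34 and Flt3 limits but without Procr, compared further below, had 84.5 CPM. The log2 ratio of members over those cells was -0.02, so Vldlr did not set the 2 groups apart.

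Nkg7, a granule membrane gene of cytotoxic lymphocytes, was at 152 CPM in members and 81.6 CPM in the rest (0.89), higher in 18 libraries and lower in 14. Myc, the growth regulator, was at 406 and 314 CPM (0.37, higher in 22), while its relative Mycn was at 124 and 202 CPM (-0.70, lower in 26). Cdk6, a G1 kinase that sets the pace of HSC cell-cycle entry, was at 159 and 113 CPM (0.48, higher in 20). Ribosome biogenesis and MYC targets had a median of 0.09, with 25 of 32 measured genes higher, none past 2-fold, and a median above 0 in 14 libraries and below 0 in 18. DNA replication and G1/S genes had a median of 0.07, with 14 of 25 higher, and a median above 0 in 13 libraries. The interferon response had 0.08, with 17 of 33 higher, but was below 0 in 22 libraries. Over all measured genes 53.5% were higher.

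The genes higher in at least 24 of the 32 libraries, besides Cd34, Flt3 and 1 predicted gene, were 8 with small ratios. Tmsb10, an actin-binding thymosin gene, stood at 1494 CPM in members and 1164 CPM in the rest (0.36). Cmtm7, a membrane gene with a role in B-1 cell development, was at 1540 and 1237 CPM (0.32), and Mpc2, a subunit of the mitochondrial pyruvate carrier, at 273 and 219 CPM (0.31). Sirt3, a mitochondrial deacetylase gene, and Muc13 both had 0.26, followed by Vill (0.18), Rpl23a (0.13) and Dapp1 (0.12).

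Of the 11 genes past 2-fold, 9 lay outside that group and were named after their values were seen. Jchain, Mzb1, Ly6d and Slpi, of which Jchain and Mzb1 are plasma cell genes, owed 78.6, 96.4, 93.9 and 90.4% of their counts in members to 1 cell of library 87. Without that library their ratios were -1.39, -1.09, -1.13 and -1.34. Clec4e, a C-type lectin gene of myeloid cells, was spread over more cells, at 55.7 and 24.0 CPM (1.18), with a count in 41.3% of members and 23.1% of the rest and a higher level in 23 libraries. Clnk, an adaptor gene of immune receptors, was at 37.0 and 16.6 CPM (1.12, higher in 21). Tespa1, Lamb3 and Wfdc17 had 1.40, 1.09 and 1.08 and were higher in only 15 or 16 libraries.

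The remaining lists lay near 0 or moved unevenly. Outside Vwf, 13 of 15 measured megakaryocyte and platelet genes were lower in members, 1 of them by 2-fold, with a median of -0.19. That median was below 0 in 24 libraries, fewer than the 29 for all genes, and under that of all genes in 21. Pf4, platelet factor 4, was at 187 and 197 CPM, and Itga2b, the platelet integrin gene, at 47.7 and 50.7 CPM. Of 6 granulocyte and monocyte priming genes 5 were higher, with a median of 0.15, above 0 in 21 libraries and under that of all genes in 10. Spi1, the myeloid transcription factor PU.1, was at 160 and 139 CPM, and Csf2ra, a chain of the GM-CSF receptor, at 73.6 and 62.8 CPM.

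Of 9 measured p53 targets 7 were lower, with a median of -0.20, below 0 in 26 libraries and under that of all genes in 25. Plk2, a polo-like kinase gene, was the one past 2-fold, at 20.3 and 45.7 CPM (-1.13). CDK inhibitors and quiescence genes had a median of -0.16 and MHC class II genes one of -0.09. Within the latter H2-Eb1 was at 224 and 323 CPM (-0.53), while H2-Ob, a regulator of peptide loading, was at 35.6 and 20.9 CPM (0.74). Oxidative phosphorylation and ribosomal protein genes had medians of 0.03 and 0.01, with none past 2-fold among 58 and 79. For markers of other cells, in members and the rest, B-lineage markers summed to 94.9 and 83.3 CPM, T-lineage markers to 26.2 and 18.9 CPM, and endothelial and stromal markers to 19.7 and 30.9 CPM. Macrophage markers summed to 64.3 and 117 CPM, with a median cell at 0 in both groups. Of these the complement genes C1qb and C1qa were at 8.83 against 27.1 CPM (-1.51) and at 13.2 against 25.4 CPM (-0.90), and their part in the other values was not tested.

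**Figure D4:**
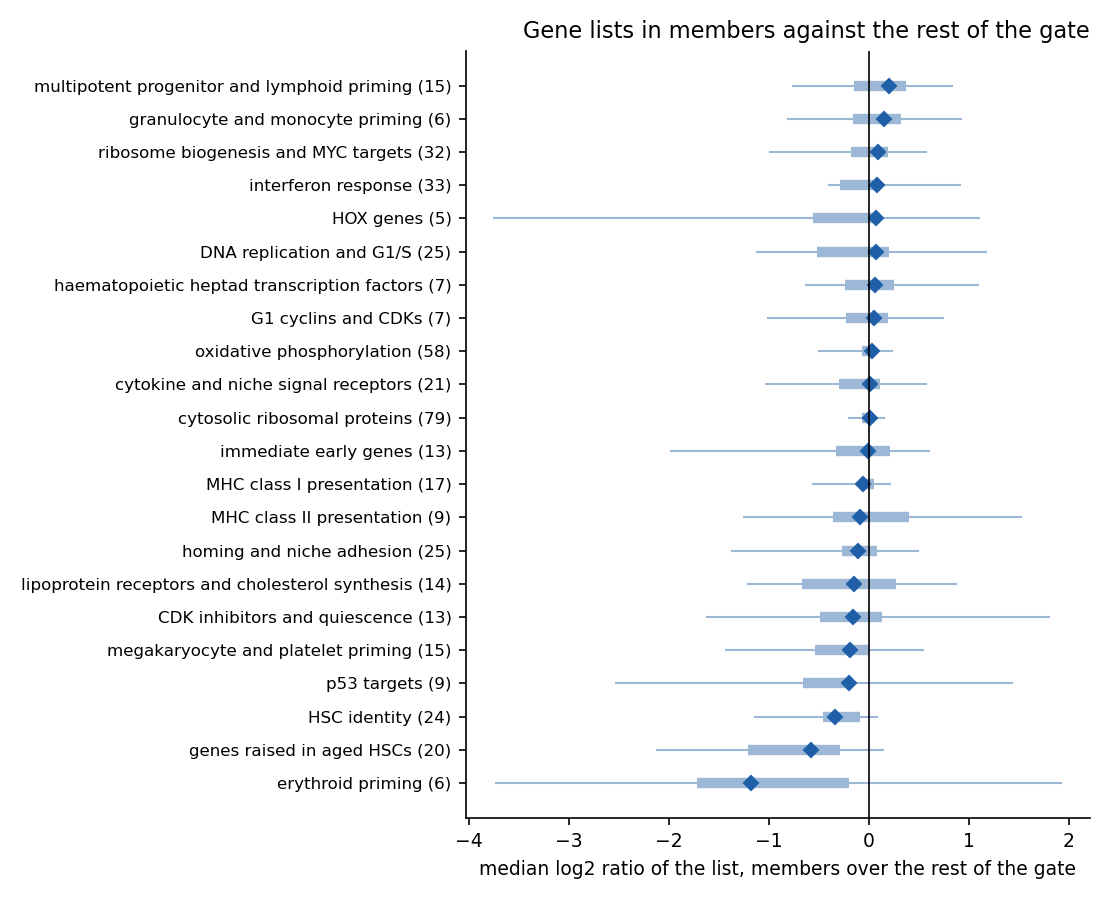
Diamonds give each list's median log2 ratio of members over the rest of the gate, with the number of measured genes in brackets; thick bars span the interquartile range of 32 libraries and thin lines their full range. The diamond of erythroid priming lies furthest left, at -1.18. The lists of HSC identity genes and of genes raised in aged HSCs also lie left of 0, and most others straddle it.

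Members were set beside the other fields of the gate, taking in all 4 groups only cells without a Vwf count. Sult1a1 was at 510 CPM in the 411 cells low in both genes, at 508 in the 65 with Flt3 alone, at 259 in the 639 with Cd34 alone and at 173 in members. Mllt3 stood at 353, 245, 203 and 149 CPM in that order, and Slamf1 at 48.3, 27.2, 34.6 and 18.8 CPM. Xdh stood at 29.4, 13.8, 20.8 and 4.11 CPM. Vldlr ran the other way, at 33.7, 52.96, 59.5 and 83.5 CPM, as did Nkg7 at 46.7, 64.4, 98.2 and 152 CPM. For each of the 6 genes the members were at the end of the order, and the cells with Cd34 alone lay between them and the cells with neither. The 6 genes were named with their difference from the rest known, and the other groups are part of the rest. Their order is therefore only a description. Not every gene lower in members kept it: Glipr1l1 was at 49.1, 9.48, 24.4 and 11.0 CPM. The 57 gate cells over both limits that hold a Vwf count are in none of the 4 groups. They had Sult1a1 at 293, Mllt3 at 313, Slamf1 at 69.4 and Xdh at 17.1 CPM, each above the members. Their Vldlr and Nkg7 were at 92.5 and 118 CPM. All 389 gate cells with a Vwf count, these 57 among them, had Sult1a1 at 453, Mllt3 at 355, Slamf1 at 57.1 and Xdh at 28.2 CPM. Against that level the 57 cells were lower in Sult1a1, Mllt3 and Xdh and higher in Slamf1. They are few, and their values were not compared library by library. The levels given for members describe only the Vwf-negative cells over both limits.

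Members were next compared with the Cd34+ Flt3-low Vwf-negative cells alone. Of 6550 genes measured, 12 were at least 2-fold higher in members (0.183%) and 16 at least 2-fold lower (0.244%). The HSC identity list kept 18 of 22 genes on the lower side with a median of -0.22, against 0.006 for all measured genes. Its median was below 0 in 22 of 27 libraries. The same count for the median of all genes is not given for these libraries, so this count has no background beside it. For genes raised in aged HSCs the median was -0.19, with 12 of 16 lower. Xdh was at 4.11 against 20.8 CPM (-2.09), with lower levels in 20 libraries and higher ones in 3. Slamf1 had a ratio of -0.85, Sult1a1 of -0.58 and Mllt3 of -0.44, all 3 lower in 18 of 27 libraries. Traf1 (-1.15) and Glipr1l1 (-1.08) were lower in 21 and 24 libraries. Over all measured genes, 21 were lower in at least 21 libraries (0.321%) and 16 were higher (0.244%).

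**Figure D5:**
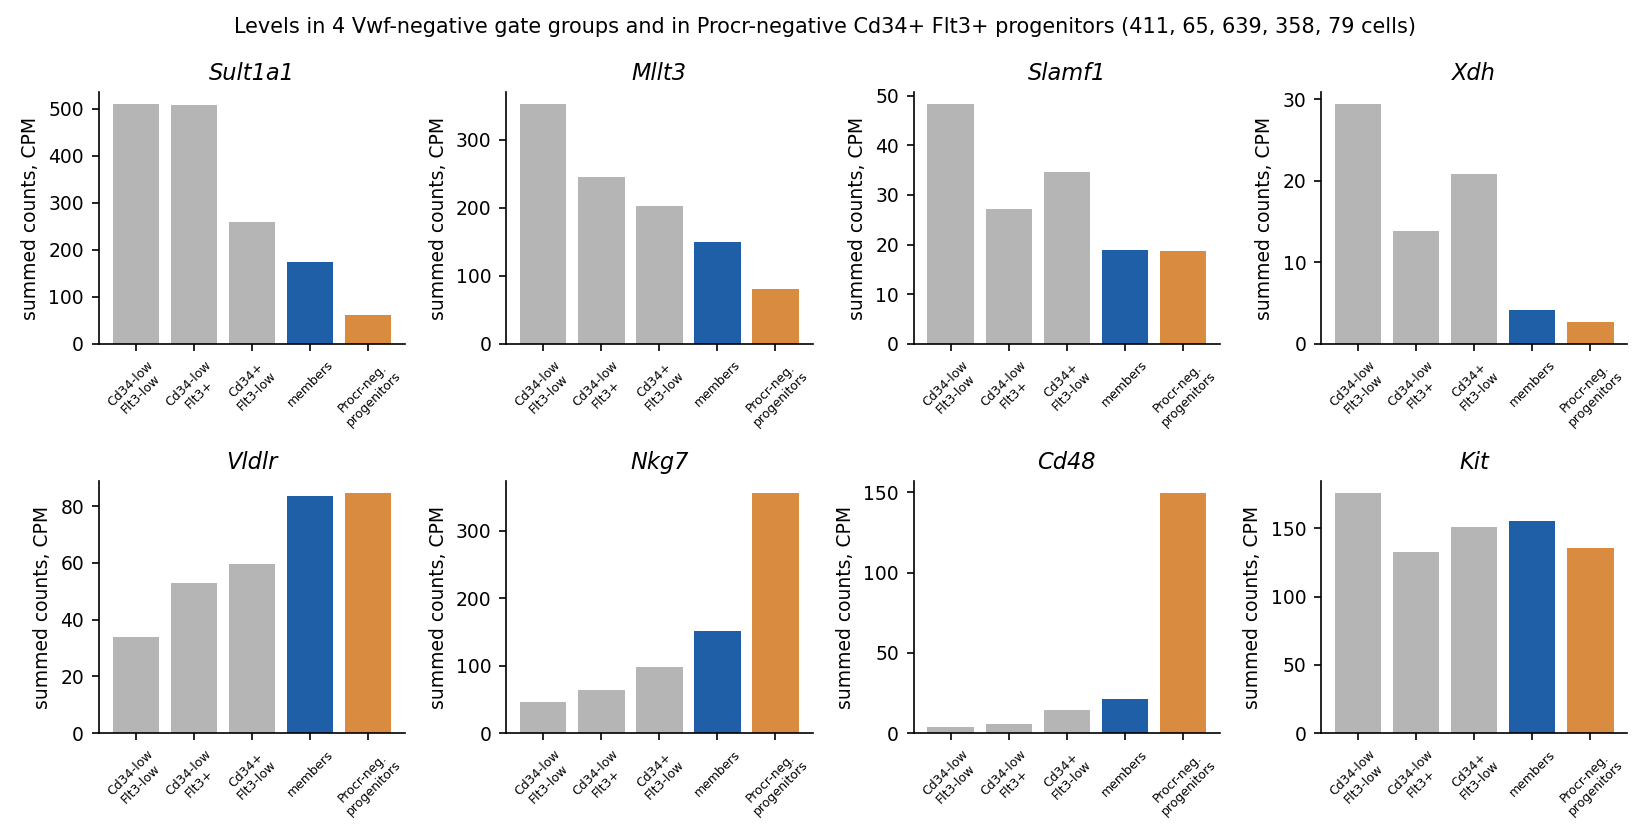
Bars give the level of 8 genes as CPM of summed counts in 4 Vwf-negative groups of the gate and in Procr-negative progenitors, with cell numbers in the title. Sult1a1, Mllt3 and Xdh are lowest in members among the gate groups, Vldlr and Nkg7 highest, and Kit is about level.

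A further 79 cells had Cd34 and Flt3 over the same limits but no count of Procr, and were not cycling by the same limit. They are called progenitors here. Between members and these progenitors 294 of 6831 genes were at least 2-fold higher in members (4.3%) and 277 at least 2-fold lower (4.06%). Against the rest the counts were 11 and 37. The progenitors are only 79 cells and the rest 1504, so sums over the progenitors are noisier and pass 2-fold more easily. What part noise has in the larger counts was not tested. The absence of Procr defines the progenitors, so genes that go with Procr also take part in the counts against them. Flt3 stood at 321 CPM in progenitors and 111 CPM in members, and Cd34 at 557 and 342 CPM.

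Of 287 genes at least 2-fold higher in progenitors than in the rest, members lay between both groups for 205 (71.4%), at a median of 12.0% of the way from the rest to the progenitors. Of 343 genes at least 2-fold lower in progenitors, members lay between for 249 (72.6%), at a median of 14.6% of the way. Both distances are in log2 and leave out the genes of the rule. The genes were picked for a gap that includes the noise of only 79 cells, so the percentages are a description with no value for no difference beside them. Xdh, at 2.63 CPM in progenitors, and Slamf1, at 18.6 CPM, were nearer to the progenitor level, whereas Cd48 was at 149 CPM in progenitors and 21.5 CPM in members.

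Within the members, cells were split by surface genes. Slamf1 counts were present in 88 and absent in 270. Cd48 stood at 5.03 CPM in the cells with Slamf1 and at 28.1 CPM in those without, a log2 difference of -2.27, with median depths of 150796 and 125974 counts. CD150 and CD48 were among the proteins stained for sorting, and the sort gate of a cell was not assigned. What part sorting has in this difference was not tested. Taking 20 CPM as the limit, 14.8% of members had Slamf1 only, 10.6% Cd48 only, 0.56% both and 74.0% neither. The 194 members with a Vldlr count had Slamf1 at 25.8 CPM, against 10.3 CPM in the 164 without. Cells were also divided by Flt3 into 88 from 20 to 50 CPM, 127 from 50 to 100 CPM and 143 over 100 CPM. Slamf1 stood at 15.2, 21.9 and 18.4 CPM, Mllt3 at 130, 174 and 139 CPM and Sult1a1 at 141, 160 and 207 CPM. These genes had no common order along Flt3. Of other genes lower in members, Hoxb5 fell along it (30.0, 19.0 and 11.2 CPM), as did Glipr1l1 (16.1, 12.2 and 6.36 CPM). Cish rose (15.9, 22.2 and 22.9 CPM).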

How the data were processed

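Whole-number counts per gene and cell were used as deposited, with no normalization; Trimmomatic 0.36, HISAT2 2.1.0, HTSeq 0.9.1 and GRCm38 are named, per the submitters' processing notes. Per the labels' protocols, cDNA was made by a Smart-seq2 variant (STRT-seq) with barcodes added at reverse transcription and 3' ends selected. No source used here says whether a count is a read or a molecule, so intervals cover counting error only and may be too narrow. Of 4288 columns, the 17 of 1 library were not used here. From 4271 cells in 67 libraries, 76 with under 1000 detected genes and a further 10 with over 10% mitochondrial counts were left out. The 95 cell positions recur between libraries (93 in more than 1), and no 2 kept cells had identical counts. No doublet caller was run, since cells were sorted singly.

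Groups were compared by summed counts as CPM, as log2 with a pseudocount of 1 CPM, for genes at 20 CPM or more in either group. The members, the gene lists and the rules were chosen with earlier results of these data known. Genes named were the rule's genes, Vldlr, up to 15 each way with the largest ratios and 1 sign in at least 75% of 32 libraries, up to 4 per list, and 10 surface genes; other names were chosen after their values were seen. Predicted genes were only counted. Some genes that the rule names are not reported here. Python 3.11.15, numpy 2.4.6, scipy 1.17.1 and pandas 2.3.3 were used, ratios were tested on simulated data, and 19071 of 19224 symbols matched GENCODE release M21, which gave positions. Alternatives covered the limits, weighting, thinning, pseudocount, level minimum and left-out libraries.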

Additional observations from a re-analysis of the deposited data

How the results depend on the processing

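No paired analysis was possible because the cells could not be tied to samples, so the samples' replicate numbers could not serve as a block; pairing was by library only, as the comparisons within libraries give it. The members' share of the gate was 14.5% with a Flt3 limit of 50 CPM, 17.3% with a Cd34 limit of 100 CPM, 22.3% with no condition on Vwf and 22.2% with the gate set after thinning to 50000 counts, in which 255 of 330 members were members before thinning. The counts of genes past 2-fold followed the level minimum: 51 higher and 170 lower at 5 CPM, and 6 and 15 at 50 CPM, where fewer genes were measured. Genes at least 2-fold lower numbered 22 with the level minimum applied to a rest weighted to the members' libraries, and also 22 against the rest without Vwf. Genes at least 2-fold higher numbered 17 without the 5 libraries high in neutrophil markers, an alternative chosen after seeing the data, as was leaving out library 87; the cause was not tested. The HSC identity median stayed below 0 under all 11 alternatives, from -0.36 to -0.11, and so did that of genes raised in aged HSCs, from -0.73 to -0.29. The multipotent progenitor and lymphoid median stayed between 0.13 and 0.24, while those of DNA replication and interferon genes changed sign in 1 and 2 alternatives. Vldlr, Slamf1, Sult1a1, Mllt3 and Xdh kept their direction wherever they were measured. Depth limits the Flt3 call, since 16 members rest on 1 count.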
